A study of Mus musculus with 11 samples.

Results

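This account describes 34 genes of the unfolded protein and amino acid response in the small intestine of mice, out of 24294 gene symbols measured. They were chosen by symbol from a list of endoplasmic reticulum (ER) chaperones, degradation factors, stress sensors and targets of the transcription factor Atf4, and all 34 were found. RNA was sequenced in 11 libraries, of which 3 carry the group name ND, 4 HFD and 4 HLJDD. The labels give the groups by these initials alone. The series title names obese mice and Huang Lian Jiedu Decoction, a herbal preparation whose initials are HLJDD, and gives its question as the effect of the decoction on lipid metabolism and on the gut hormone gastric inhibitory polypeptide. Diet, dose, duration, strain, age, the stretch of small intestine and whether each library is a separate mouse were not stated in the labels, so p-values measure the spread between these libraries, which may in part be technical.

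Secreted and membrane proteins fold in the ER with the help of chaperones, sugar-binding lectins and enzymes that form disulfide bonds. When unfolded proteins build up there, 3 sensors, Ern1 (IRE1), Atf6 and Eif2ak3 (PERK), start the unfolded protein response. Active Ern1 splices Xbp1 mRNA and Atf6 is cut to release a transcription factor, and both products raise chaperone and degradation genes, while Eif2ak3 slows translation and favours Atf4, which also serves the response to a lack of amino acids. In the gut this system is known for its part in goblet, Paneth and plasma cells, which secrete large amounts of protein. The values here are mRNA levels of whole tissue, so neither splicing of Xbp1 nor cleavage of Atf6 was measured, and fewer cells of a type cannot be told apart from less RNA per cell.

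The DNA just before a gene's start can carry the elements through which the response is known to act. The sequences below show the element that several chaperone genes share and the different one found in Atf4 targets. RefSeq promoters (assembly GRCm38.p6, which corresponds to mm10, 250 bases before to 50 after the start) were found for 28 of the 34 genes. Both strands were searched for 4 motifs, and no 2 matches overlapped in the 28 genes. The ER stress element, CCAAT and CCACG with 9 bases of any kind between them, bound by Atf6, stood in 39 of 32851 mouse promoters (0.119%) and in 8 of the 28 (28.6%), namely Hspa5, Hsp90b1, Dnajc3, Creld2, Pdia6, Calr, Canx and Syvn1. Its shorter relative ERSE-II, ATTGG and CCACG with 1 base of any kind between them, stood in 12 promoters (0.0365%) and in Dnajb11 and Herpud1 among the 28. The Xbp1-bound core TGACGTGG stood in 222 promoters (0.676%) and in Kdelr3 alone of the 28. The Atf4-bound amino acid element, TGATG and AA with 1 base of any kind between them, stood in 1304 promoters (3.97%) and in 5 of the 28, namely Asns, Atf3, Chac1, Trib3 and Herpud1. In the sequences below, read 5′ to 3′ on the strand of the gene, capitals mark the motif, on either strand. The whole 250 bases before the start are given for Hspa5 (chr2:34771840-34772089, plus strand), because it is the best known target, and 12 bases on each side of the motif for Dnajc3 (chr14:118937815-118937857, plus strand), Creld2 (chr15:88819508-88819550, plus strand), Calr (chr8:84847063-84847105, minus strand), Canx (chr11:50325788-50325830, minus strand), Kdelr3 (chr15:79516366-79516397, plus strand), Herpud1 (chr8:94386365-94386399, plus strand), Asns (chr6:7693213-7693244, minus strand) and Atf3 (chr1:191183424-191183455, minus strand). Hsp90b1 holds a pair of ER stress elements, the first at chr10:86705626-86705668 and the second at chr10:86705521-86705563 on the minus strand.
Hspa5, ER stress element: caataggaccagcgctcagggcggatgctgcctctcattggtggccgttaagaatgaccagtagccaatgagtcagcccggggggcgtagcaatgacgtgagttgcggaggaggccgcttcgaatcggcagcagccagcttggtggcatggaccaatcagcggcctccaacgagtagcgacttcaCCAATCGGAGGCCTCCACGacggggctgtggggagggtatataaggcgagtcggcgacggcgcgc
Hsp90b1, first ER stress element: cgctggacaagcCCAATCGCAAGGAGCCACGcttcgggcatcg
Hsp90b1, second ER stress element: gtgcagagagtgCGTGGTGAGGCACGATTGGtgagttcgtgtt
Dnajc3, ER stress element: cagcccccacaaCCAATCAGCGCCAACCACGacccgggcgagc
Creld2, ER stress element: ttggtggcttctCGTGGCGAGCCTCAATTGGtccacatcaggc
Calr, ER stress element: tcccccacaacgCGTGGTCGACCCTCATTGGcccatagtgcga
Canx, ER stress element: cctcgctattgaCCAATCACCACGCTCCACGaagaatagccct
Herpud1, ERSE-II: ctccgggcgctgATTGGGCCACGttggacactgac
Kdelr3, Xbp1-bound core: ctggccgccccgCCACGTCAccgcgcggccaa
Asns, amino acid element: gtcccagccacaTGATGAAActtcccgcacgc
Atf3, amino acid element: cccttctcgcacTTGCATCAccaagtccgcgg
A match is a description of the letters and not a measured binding site.

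Levels are in FPKM, fragments scaled by gene length and by library size. Between 30100524 and 37940746 reads per library were recovered in genes. Mitochondrial genes took 10.4 to 19.3% of them in 9 libraries. HFD replicate 1 had 32.4% and HLJDD replicate 2 had 40.7%. HLJDD replicate 2 was the lowest of its group for 31 of the 34 genes and HFD replicate 1 for 22, where over the 10764 genes that reached 1 FPKM in no fewer than 3 libraries they were lowest for 77.9% and 69%. After median-ratio scaling, which removes a shift shared by all genes of a library, HLJDD replicate 2 was the lowest for 20 of the 34 and the highest for 12, and HFD replicate 1 the lowest for 18 and the highest for 12 (lowest for 37.6% and 30.4% of all genes). Counts are also given without both libraries. The groups also differed in genes known from parts of the gut. The summed level of 14 genes known from the distal small intestine was 4321 to 14936 FPKM in ND, 1360 to 2397 in HFD and 1254 to 2815 in HLJDD, and that of 12 proximal genes was 797 to 7614, 27384 to 37012 and 22126 to 39194. Most of the proximal sum in HFD came from Apoa4 and Fabp1, with means of 18326 and 12448 FPKM. Of 10 tested proximal genes 7 rose in HFD against ND (5.06% of all genes) and Slc40a1 fell by 1.96 on the log2 scale (limma, adjusted p = 0.0014). Of 12 tested distal genes 7 fell (11.5% of all genes) and none rose. Gut position and group therefore cannot be told apart in these libraries. Within ND, replicate 3 had the lowest distal sum (4321 against 11504 and 14936), and it was the lowest ND library for 16 of the 34 genes, replicate 1 for 15 and replicate 2 for 3. After scaling it was lowest for 5, replicate 1 for 21 and replicate 2 for 8.

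ER chaperone genes fell in HFD against ND, led by Canx, Hspa5 and Hyou1, while the retrieval receptor gene Kdelr3 rose. Of the 34 genes, 32 passed that expression filter. In HFD against ND 12 of the 32 fell and 2 rose at an adjusted p under 0.05 in limma, where 11.5% of all 10764 genes fell and 5.06% rose. The fallen genes were Hspa5, Hsp90b1, Hyou1, Dnajb9, Dnajb11, Sdf2l1, Manf, Creld2, Canx, Ern1, Atf6 and Asns, and the risen genes were Kdelr3 and Atf3. Every HFD library lay below every ND library for 21 of the 32 and above for 4, against 32.9% and 9.57% of all genes. The median log2 change was -0.59 over the 32 and -0.21 over all genes tested. After median-ratio scaling 15 of the 32 fell and 4 rose (11.4% and 11.6% of all genes), with a median of -0.38, and 17 lay below ND without overlap and 4 above (18.6% and 17% of all genes). Without HFD replicate 1 and HLJDD replicate 2, 20 fell and 4 rose (21.9% and 9.41% of all genes), and with scaling as well 16 fell and 4 rose (12.6% and 11.5%). The number called changed when 1 library was left out. It was 3 without ND replicate 1 or without ND replicate 2, 7 without ND replicate 3 and 23 without HLJDD replicate 2, against 14 with all. Over all genes the number moved in the same directions. It was 617, 638 and 1297 without ND replicate 1, 2 and 3 and 3314 without HLJDD replicate 2, against 1786 with all. With no filter on low values 9 calls were lost, those of Hspa5, Hsp90b1, Hyou1, Dnajb11, Sdf2l1, Creld2, Atf6, Atf3 and Asns (limma, adjusted p = 0.0527 to 0.107), and Chac1 was called.

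**Figure D1:**
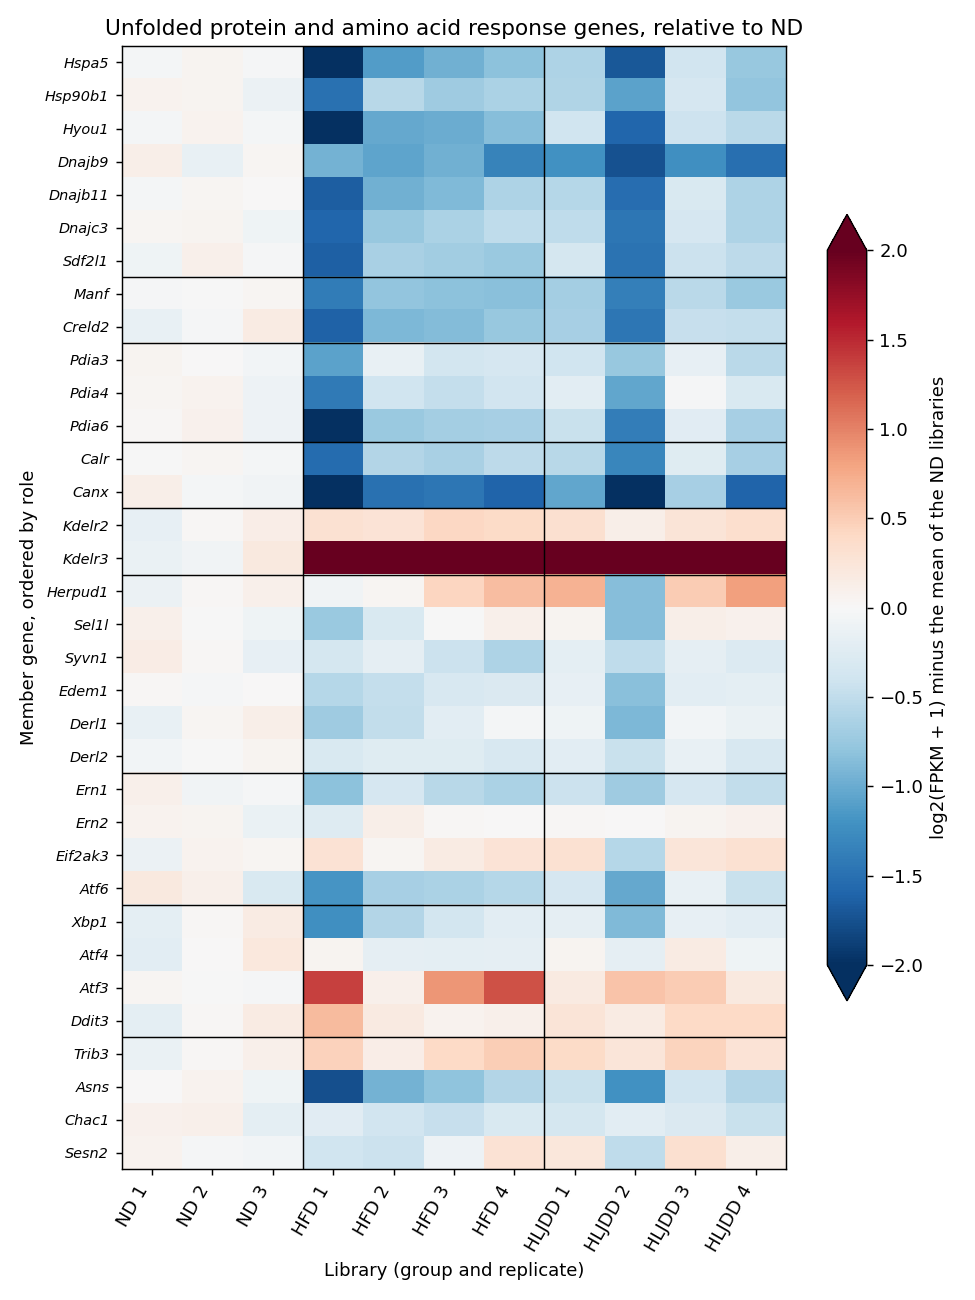
Level of each of the 34 genes (rows, ordered by role) in each library (columns), as log2(FPKM + 1) minus the mean of the ND libraries; colours are capped at 2 in both directions. The chaperone, isomerase and lectin rows are below the ND mean in all HFD and HLJDD libraries, if barely so for Pdia4 in HLJDD replicate 3, and are lowest for most in HFD replicate 1 and HLJDD replicate 2, while Kdelr3 is above ND throughout.

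Among the 7 chaperones and co-chaperones, 6 fell and all 7 had every HFD library below every ND library. Hspa5 encodes BiP, the main ER chaperone, which also holds the sensors inactive. It stood at 225, 239 and 228 FPKM in ND, at 48.7, 106, 118 and 129.9 in HFD and at 151, 70.4, 177 and 136 in HLJDD. HFD replicate 1 was the lowest of all, and no HFD or HLJDD library reached ND. In HFD against ND Hspa5 fell by 1.28 on the log2 scale (SE 0.35, limma, adjusted p = 0.0272). The ER form of the Hsp90 chaperones, Hsp90b1, stood at 209, 206 and 184 FPKM in ND, at 69.9, 136, 122 and 128 in HFD and at 131, 94.0, 158 and 116 in HLJDD, again with ND above every other library. It fell by 0.85 on the log2 scale (SE 0.23, limma, adjusted p = 0.0298) in HFD. Its exons share 415 bases with 1810014B01Rik on the opposite strand and 133 and 63 with Gm25745 and Gm15344 on the same strand, and whether the counting used strand is not stated. Hyou1, an exchange factor that resets BiP, stood at 23.5, 25.4 and 23.3 FPKM in ND, at 5.06, 11.2, 11.6 and 12.9 in HFD and at 18.0, 7.35, 17.8 and 16.3 in HLJDD. Its HLJDD libraries other than replicate 2 lay above all HFD libraries and below all ND libraries, and the fall in HFD was 1.23 on the log2 scale (SE 0.32, limma, adjusted p = 0.0229). When ND replicate 1, 2 or 3 was left out, the adjusted p became 0.0946, 0.101 and 0.0636 for Hspa5, 0.115, 0.112 and 0.0553 for Hsp90b1, and 0.0826, 0.0915 and 0.0536 for Hyou1. Without HFD replicate 1 and HLJDD replicate 2 together the falls were smaller and still passed the test, at -0.97 for Hspa5, -0.63 for Hsp90b1 and -0.96 for Hyou1 (limma, adjusted p = 0.00123, 0.00647 and 0.000335).

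Dnajb9 encodes a BiP partner that is known to restrain Ern1. Its levels were at 105, 86.6 and 98.7 FPKM in ND, at 49.5, 45.8, 49.2 and 37.8 in HFD and at 41.4, 28.1, 40.6 and 33.4 in HLJDD. The 3 groups were tight here, and the HFD and HLJDD libraries together reached at most 49.5 FPKM. Dnajb9 fell by 1.07 on the log2 scale (SE 0.16, limma, adjusted p = 0.00153) in HFD, and the call was kept in all 22 alternative settings (adjusted p between 0.000674 and 0.0124). Dnajb11, a further BiP partner, stood at 37.5, 39.7 and 38.7 FPKM in ND, at 11.6, 19.5, 20.4 and 24.9 in HFD and at 25.6, 12.7, 31.0 and 24.9 in HLJDD. HFD replicate 1 and HLJDD replicate 2 were far below the other libraries of their groups, and the fall in HFD was 1.03 on the log2 scale (SE 0.28, limma, adjusted p = 0.0293). Sdf2l1, whose product works beside that of Dnajb11, stood at 22.8, 26.4 and 24.1 FPKM in ND, at 7.23, 15.2, 14.7 and 14.3 in HFD and at 18.9, 8.10, 17.8 and 16.7 in HLJDD. Its 3 other HFD libraries were close together at 14.3 to 15.2 FPKM, well below ND, and it fell by 0.93 on the log2 scale (SE 0.29, limma, adjusted p = 0.0461). Dnajc3, a BiP partner also known to damp Eif2ak3, had every HFD library (7.37 to 16.7 FPKM) below ND (22.6 to 25.0) with a log2 change of -0.87 that did not pass the test (adjusted p = 0.0545) and passed after median-ratio scaling (-0.63, adjusted p = 0.0282). The call for Dnajb11 was lost without any 1 of the 3 ND libraries or without HFD replicate 1 (adjusted p = 0.0978, 0.107, 0.0696 and 0.0636). That for Sdf2l1 was lost without 9 of the 11 libraries in turn, with an adjusted p of 0.155 at most (without ND replicate 2); it was kept without HFD replicate 2 and without HLJDD replicate 2.

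Both genes of secreted ER stress proteins fell in HFD. Manf, a growth factor-like protein held in the ER and released under stress, stood at 169, 172 and 176 FPKM in ND, at 64.9, 99.0, 97.6 and 96.4 in HFD and at 107, 66.4, 118 and 102 in HLJDD. The ND libraries differed by little, and 3 HFD libraries lay within 96.4 to 99.0 FPKM. It fell by 0.96 on the log2 scale (SE 0.21, limma, adjusted p = 0.00988), and this call was kept in all 22 alternative settings (adjusted p between 0.000594 and 0.0476). Exons of Manf share 166 bases with 4930524O07Rik on the opposite strand and 14 with Rbm15b on the same strand, a gene at mean levels of 5.22 FPKM in ND and 3.94 in HFD. Creld2, which follows the same stress signals, stood at 22.2, 24.2 and 27.9 FPKM in ND, at 7.41, 12.8, 13.1 and 14.2 in HFD and at 15.2, 8.48, 17.6 and 17.5 in HLJDD. No HFD or HLJDD library reached ND, and it fell by 1.03 on the log2 scale (SE 0.26, limma, adjusted p = 0.0185) in HFD. Without ND replicate 1, 2 or 3 its adjusted p was 0.0578, 0.072 and 0.0618.

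The lectin chaperones hold glycoproteins until they are folded. Canx, the membrane-bound calnexin, stood at 184, 166 and 162 FPKM in ND, at 21.5, 59.7, 62.2 and 55.8 in HFD and at 82.8, 28.4, 107 and 55.2 in HLJDD. HFD and HLJDD libraries overlapped each other and all lay below ND. The group means were 171 ± 12.03 FPKM in ND (SD, n = 3), 49.8 ± 19.0 in HFD (SD, n = 4) and 68.4 ± 34.2 in HLJDD (SD, n = 4). Canx fell by 1.86 on the log2 scale (SE 0.43, limma, adjusted p = 0.0132) in HFD, the largest fall of the 32 genes on this scale. Without ND replicate 1 or 2 its adjusted p was 0.0647 and 0.0527. Calr, the soluble calreticulin and the highest of the 34 in mean level, stood at 315, 323 and 307 FPKM in ND, at 108, 210.3, 199.8 and 219.9 in HFD and at 215, 127, 266 and 198 in HLJDD. All HFD and HLJDD libraries were below ND, and its log2 change of -0.82 in HFD did not pass the test (adjusted p = 0.0583). It did after median-ratio scaling (-0.56, adjusted p = 0.0301).

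The 3 disulfide isomerases had every HFD library below every ND library, and none passed the test on the values as deposited. Pdia6 had 10.7 to 30.2 FPKM in HFD against 45.1 to 51.7 in ND (log2 change -1.04, SE 0.34, limma, adjusted p = 0.0569). For Pdia4 the ranges were 10.4 to 22.3 and 27.2 to 31.0 FPKM (log2 change -0.67, adjusted p = 0.106). Pdia3, which acts together with the lectins, ranged from 98.0 to 186 and from 198 to 216 FPKM (log2 change -0.48, adjusted p = 0.124). In all 3 HFD replicate 1 had less than any other library. After median-ratio scaling Pdia6 passed (-0.79, adjusted p = 0.0344). Without HFD replicate 1 and HLJDD replicate 2 both Pdia6 (-0.69, adjusted p = 0.00345) and Pdia4 (-0.42, adjusted p = 0.0115) passed, as they did with scaling as well (adjusted p = 0.00524 and 0.0353).

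**Figure D2:**
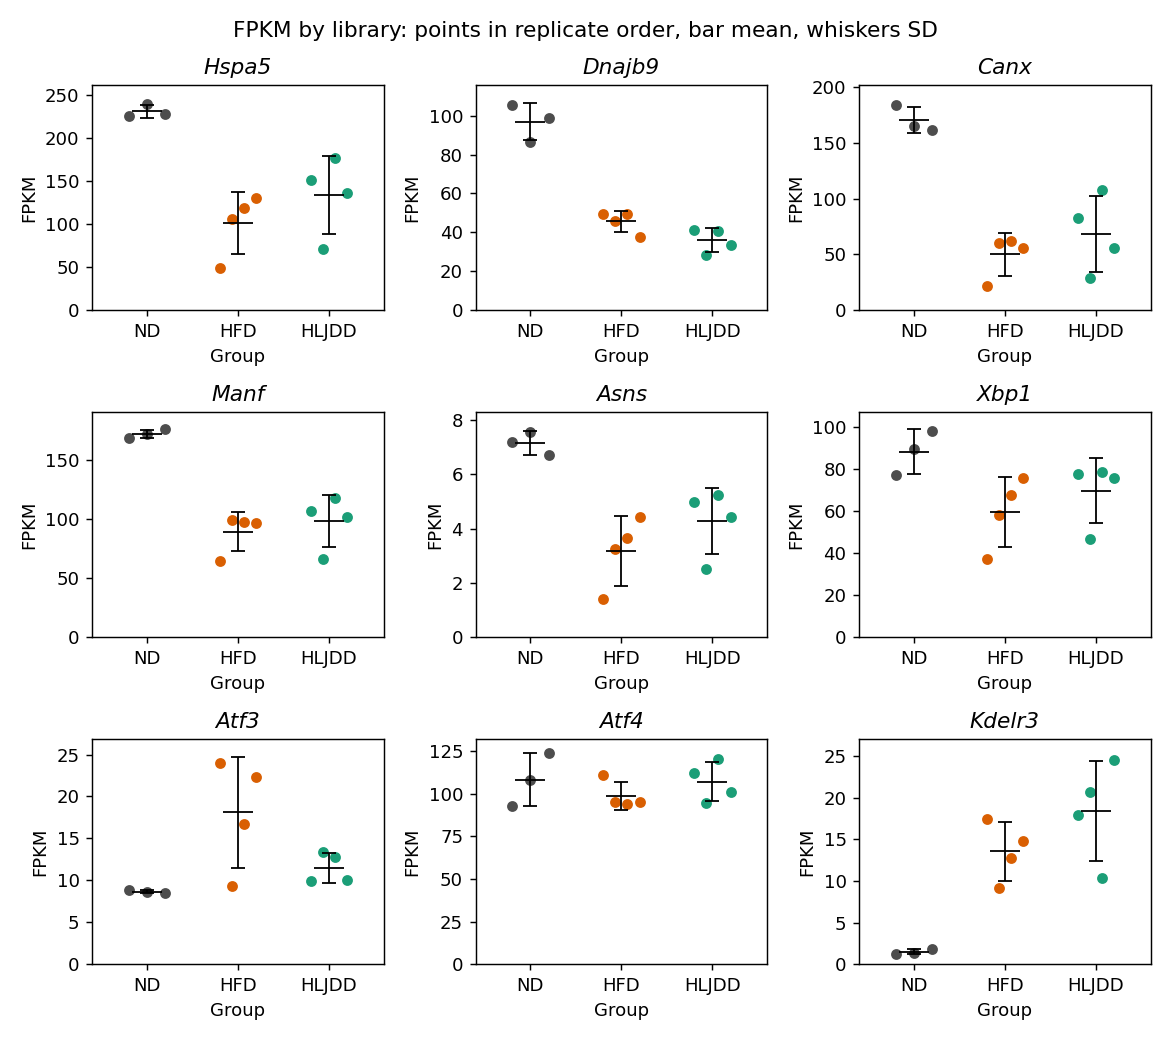
FPKM of 9 genes (vertical axes from 0) in each library of ND, HFD and HLJDD (horizontal axis), with points in replicate order, a bar at the group mean and whiskers of 1 SD. Hspa5, Dnajb9, Canx, Manf and Asns are above every HFD and HLJDD library in ND, Kdelr3 is below all of them in ND, and Atf4 overlaps in the 3 groups.

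Of the 2 retrieval receptors on the list Kdelr3 rose. These receptors return escaped ER proteins that end in the letters KDEL or a close variant, among them BiP. Kdelr3 stood at 1.28, 1.39 and 1.88 FPKM in ND, at 17.5, 9.13, 12.8 and 14.7 in HFD and at 17.9, 20.7, 10.4 and 24.5 in HLJDD. All 8 HFD and HLJDD libraries were above all 3 ND libraries, and the ND levels rested on 64 to 99 reads against 436 to 1281 in the others. Mean levels were 1.52 ± 0.320 FPKM in ND (SD, n = 3), 13.5 ± 3.51 in HFD (SD, n = 4) and 18.4 ± 5.99 in HLJDD (SD, n = 4). It rose by 2.50 on the log2 scale (SE 0.26, limma, adjusted p = 0.000221) in HFD, and the call was kept in all 22 alternative settings (adjusted p between 7.12e-05 and 0.00286). Exons of Kdelr3 share 4 bases with Ddx17 on the opposite strand, and the log2 change of Ddx17 was -0.18 (adjusted p = 0.457). Kdelr2 stood at 76.6, 88.1 and 94.98 FPKM in ND, at 106, 105, 115 and 112 in HFD and at 108, 93.2, 103 and 109 in HLJDD, with every HFD library above ND and overlap of HLJDD with ND. Its log2 change of 0.34 in HFD did not pass the test (adjusted p = 0.0796) and passed after median-ratio scaling (0.60, adjusted p = 0.0208). Kdelr1, which is not one of the 34, was the most abundant receptor, with 91.7 to 127 FPKM in ND and 119 to 167 in HFD (log2 change 0.37, adjusted p = 0.177). Of the summed FPKM of the 3 receptors, Kdelr3 made up 0.703 to 0.843% in ND, 3.80 to 7.20% in HFD and 3.82 to 9.58% in HLJDD, so Kdelr1 and Kdelr2 remained the bulk in every library.

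With all 11 libraries as deposited, the 6 degradation factors did not pass the test in either direction. Syvn1, the ubiquitin ligase of the ER membrane, Edem1, which marks misfolded glycoproteins, and Derl2, a channel component, had every HFD library below ND, with log2 changes of -0.39, -0.41 and -0.27 (adjusted p = 0.076, 0.1 and 0.108). After median-ratio scaling these 3 overlapped with ND. Without HFD replicate 1 and HLJDD replicate 2 all 3 passed, at -0.41, -0.36 and -0.26 (limma, adjusted p = 0.0342, 0.0093 and 0.0312). With scaling as well they did not (adjusted p = 0.0792, 0.178 and 0.325). Edem1 also passed in the fit of 2 groups alone. Sel1l, the partner of Syvn1, and Derl1 overlapped with ND as deposited, at -0.24 and -0.36 (adjusted p = 0.494 and 0.236), and the sign of Sel1l changed with scaling (0.01). Herpud1, which recruits the ligase and holds both an ERSE-II and an amino acid element in its promoter, stood at 34.2, 37.6 and 39.9 FPKM in ND, at 35.2, 38.1, 50.2 and 57.3 in HFD and at 60.8, 20.2, 53.1 and 66.5 in HLJDD. Libraries of 1 group differed widely here, with HLJDD replicate 2 lowest of all, and its log2 change of 0.25 in HFD did not pass (95% interval -0.48 to 0.98, adjusted p = 0.594). Exons of Derl2 and Syvn1 share 231 and 91 bases with Mis12 and Mrpl49 on the opposite strand.

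Of the sensors, Ern1 and Atf6 fell, Eif2ak3 did not pass the test and Ern2 was too low to test. Ern1 stood at 3.66, 3.12 and 3.29 FPKM in ND, at 1.47, 2.43, 1.95 and 1.79 in HFD and at 2.23, 1.67, 2.43 and 2.08 in HLJDD. These are low levels, of 328 to 906 reads, and every HFD and HLJDD library was below ND. It fell by 0.59 on the log2 scale (SE 0.14, limma, adjusted p = 0.0156) in HFD. Atf6 stood at 7.41, 6.91 and 4.94 FPKM in ND, at 2.23, 3.63, 3.75 and 3.96 in HFD and at 4.83, 2.63, 5.59 and 4.39 in HLJDD. Every HFD library was below ND, while HLJDD replicate 3 (5.59 FPKM) was above ND replicate 3 (4.94). It fell by 0.76 on the log2 scale (SE 0.22, limma, adjusted p = 0.036) in HFD. Without ND replicate 1 or 2 the adjusted p was 0.0823 and 0.0537 for Ern1 and 0.155 and 0.139 for Atf6, which also lost its call without HFD replicate 1 (0.0777) or HFD replicate 3 (0.0564), with values scaled to equal sums (0.0504) and with no filter on low values (0.0848). Eif2ak3 ranged from 4.37 to 5.10 FPKM in ND and from 4.97 to 6.13 in HFD (log2 change 0.19, adjusted p = 0.48). Its exons share 485 bases with Gm43292 on the opposite strand. Ern2, the form of Ern1 known from gut epithelium, was at 0.22 to 0.59 FPKM over the 11 libraries, on 22 to 62 reads.

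Of the 4 transcription factors Atf3 rose and the other 3 did not pass the test. Xbp1 stood at 77.0, 89.5 and 98.3 FPKM in ND, at 37.1, 58.0, 67.7 and 75.9 in HFD and at 77.8, 46.9, 78.6 and 75.9 in HLJDD. Every HFD library was below ND, narrowly for HFD replicate 4 (75.9 against 77.0 in ND replicate 1). After median-ratio scaling HFD (48.9 to 77.3 scaled FPKM) overlapped with ND (65.4 to 93.8). The log2 change of -0.60 as deposited did not pass the test (adjusted p = 0.105). With quantile normalization it was -0.46 and passed (limma, adjusted p = 0.0346). Without HFD replicate 1 and HLJDD replicate 2 it was -0.39 and passed (adjusted p = 0.0389), and with scaling as well it was -0.24 and did not (adjusted p = 0.31). Atf4 stood at 93.0, 108 and 124 FPKM in ND, at 111, 95.2, 94.2 and 94.95 in HFD and at 112, 94.8, 121 and 101 in HLJDD. The 3 groups overlapped, with a log2 change of -0.12 in HFD (95% interval -0.44 to 0.19, adjusted p = 0.538) that became 0.13 after median-ratio scaling. Since Atf4 is known to be controlled mainly at translation, its mRNA need not follow its protein. Ddit3, the stress factor CHOP, stood at 4.59, 5.53 and 6.15 FPKM in ND, at 8.90, 6.23, 5.68 and 5.86 in HFD and at 6.64, 6.14, 7.45 and 7.46 in HLJDD. ND and HFD overlapped, and its log2 change was 0.24 (adjusted p = 0.267). Exons of Ddit3 share 68 bases with Mars (Mars1) and 13 with Gm4189, both on the opposite strand.

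Atf3 encodes a stress factor and is also an early response gene. It stood at 8.89, 8.64 and 8.47 FPKM in ND, at 24.0, 9.36, 16.7 and 22.4 in HFD and at 9.93, 13.4, 12.7 and 10.03 in HLJDD. ND was tight, HFD replicate 2 lay just above it, and the 3 other HFD libraries were above every HLJDD library. It rose by 0.91 on the log2 scale (SE 0.25, limma, adjusted p = 0.0315). The call was lost without any 1 of the 3 ND libraries (0.104, 0.108 and 0.0766) and without HFD replicate 1, 3 or 4 (0.0722, 0.0601 and 0.0633). It was also lost with values scaled to equal sums (0.0599), in the fit of 2 groups alone (0.0507) and with no filter on low values (0.078). Beside it, 4 of 12 tested genes that tissue handling is known to induce rose in HFD, where 5.06% of all genes did. They were Fos (1.08), Jun (0.90), Btg2 (0.76) and Fosb (1.31 on the log2 scale, limma, adjusted p = 0.0311, 0.0153, 0.0221 and 0.0302). Klf4 fell by 0.66 (adjusted p = 0.0079). Zfp36 and Junb, with Fos the most abundant of the list, were at 0.17 and -0.06 (adjusted p = 0.523 and 0.773). In HLJDD against ND Fos and Jun rose by 1.11 and 0.86 and Klf4 fell by 0.71 (adjusted p = 0.0336, 0.0227 and 0.00665), while Atf3 was at 0.36 (adjusted p = 0.369). The summed level of the 13 listed handling genes was 321 to 387 FPKM in ND, 328 to 499 in HFD and 345 to 468 in HLJDD, and none was at 0 in all libraries. Their part in the Atf3 result was not tested.

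Among the Atf4 targets 1 gene fell. Asns, which makes asparagine, stood at 7.19, 7.58 and 6.70 FPKM in ND, at 1.41, 3.24, 3.64 and 4.44 in HFD and at 4.97, 2.53, 5.23 and 4.42 in HLJDD. ND was above every other library, with 848 to 946 reads against 153 to 676, and HFD replicate 1 was lowest. It fell by 1.02 on the log2 scale (SE 0.26, limma, adjusted p = 0.0219) in HFD. Without ND replicate 1 or 2 its adjusted p was 0.0854 and 0.0912. Trib3, a pseudokinase that restrains Atf4, ranged from 6.75 to 8.03 FPKM in ND and from 8.25 to 10.9 in HFD without overlap, and its log2 change of 0.37 did not pass (adjusted p = 0.0649). It passed after median-ratio scaling (0.60, adjusted p = 0.0258). Sesn2, an inhibitor of growth signalling, overlapped at 1.65 to 1.91 and 1.06 to 2.37 FPKM (log2 change -0.16, adjusted p = 0.598), and its sign changed between scalings. Chac1, which breaks down glutathione, did not reach the filter and was counted with 26, 28 and 12 reads in ND, 9, 3, 0 and 7 in HFD and 5, 9, 8 and 1 in HLJDD. Asns, Trib3 and Chac1 all hold the amino acid element, and their HFD means lay below, above and below ND in turn.

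**Figure D3:**
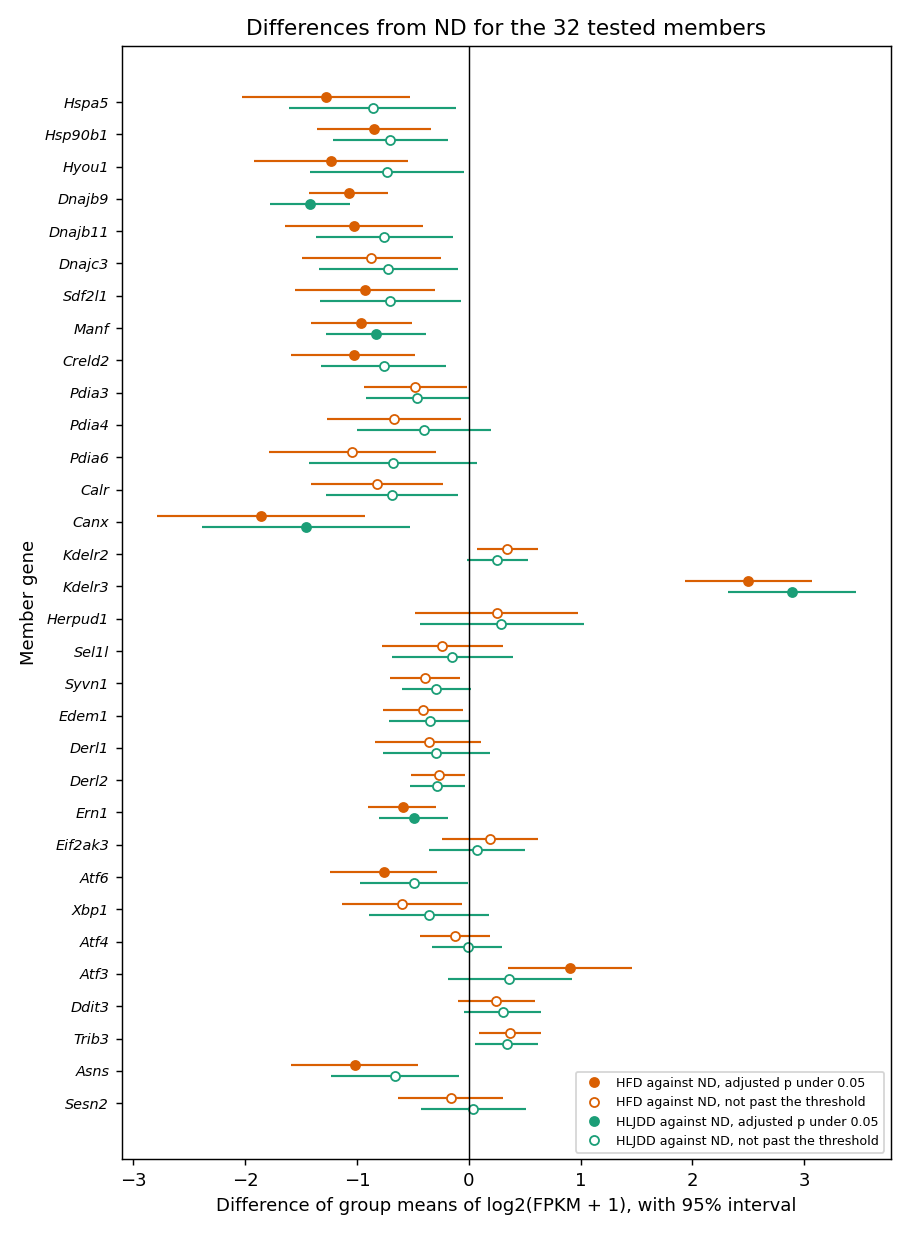
Difference in log2(FPKM + 1) from ND (horizontal axis) of the HFD mean and the HLJDD mean for the 32 tested genes (vertical axis), with 95% intervals; filled points have an adjusted p under 0.05. Most filled points to the left belong to chaperones, secreted proteins and Canx, and Kdelr3 lies furthest to the right at 2.50 and 2.89. Atf3 is the other filled point to the right, for HFD at 0.91. Both sets of points share the ND libraries.

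HLJDD was also set against ND. In that comparison 4 of the 32 genes fell and 1 rose, where 7.79% of all genes fell and 4.1% rose. Every HLJDD library lay below every ND library for 18 of the 32 and above for 3, against 21.3% and 8.3% of all genes. The median was -0.43 over the 32 and -0.13 over all genes. Dnajb9 fell by 1.42 on the log2 scale (SE 0.16, limma, adjusted p = 0.000436) and Kdelr3 rose by 2.89 on the log2 scale (SE 0.26, limma, adjusted p = 9.41e-05), and both calls were kept in all 22 alternative settings (adjusted p up to 0.00542 and 0.00168). Manf fell by 0.83 on the log2 scale (SE 0.21, limma, adjusted p = 0.0233), a call lost without ND replicate 1, 2 or 3 (0.0894, 0.0927 and 0.0629) and without HLJDD replicate 4 (0.0519). Canx fell by 1.46 on the log2 scale (SE 0.43, limma, adjusted p = 0.0454) and Ern1 by 0.49 on the log2 scale (SE 0.14, limma, adjusted p = 0.0402). The call for Canx was lost without 9 of the 11 libraries in turn (the exceptions were HFD replicate 1 and HLJDD replicate 3) and that for Ern1 without 8 (the exceptions were HFD replicates 1 and 2 and HLJDD replicate 3), with an adjusted p of at most 0.165 and 0.177, both without ND replicate 1. The calls for Manf, Canx and Ern1 were also lost with no filter (adjusted p = 0.0523 to 0.114) and with equal sums (0.051 to 0.0732), that for Canx in limma-voom (0.0598) and that for Ern1 with a pseudocount of 0.1 (0.051). Hspa5 was at -0.86 (95% interval -1.61 to -0.11, adjusted p = 0.126), and Asns at -0.66 (adjusted p = 0.124). After median-ratio scaling 7 fell and 1 rose (9.18% and 8.61% of all genes). Without HFD replicate 1 and HLJDD replicate 2, 15 fell and 5 rose (12.1% and 11.8%). Hspa5 was among the falls at -0.58 (limma, adjusted p = 0.00983). The rises were Kdelr3 (2.82), Herpud1 (0.67), Trib3 (0.37), Ddit3 (0.36) and Eif2ak3 (0.28; adjusted p = 0.000698, 0.014, 0.0398, 0.0342 and 0.045). With scaling as well 15 fell and 4 rose (11.2% and 11.1%), and Eif2ak3 did not pass (adjusted p = 0.0641). As deposited with all libraries Trib3, Ddit3 and Eif2ak3 were at 0.34, 0.31 and 0.07 (adjusted p = 0.105, 0.223 and 0.847). The count of 5 became 2 without any 1 of the 3 ND libraries or without HLJDD replicate 4, 3 without HFD replicate 3, HFD replicate 4 or HLJDD replicate 1, and 10 without HFD replicate 1. The count over all genes also changed when 1 library was left out, as given further below.

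The comparison of HLJDD with HFD asks what the decoction changed, as far as the title gives the aim. None of the 32 genes passed the test, and neither did any of the 10764 genes (0%). At an unadjusted p under 0.05 limma gave 186 genes (1.73%) and 2 of the 32, Atf3 at -0.54 (95% interval -1.06 to -0.03) and Dnajb9 at -0.35 (95% interval -0.68 to -0.02), both lower in HLJDD. limma-voom on the recovered reads also gave 0 genes. For none of the 32 were the HLJDD and HFD libraries without overlap, against 0.483% of all genes above and 0.548% below. After median-ratio scaling Dnajb9 alone had every HLJDD library (33.5 to 38.1 scaled FPKM) below every HFD library (38.5 to 65.2), and no gene of the 32 was above, where 1.71% of all genes were below and 1.89% above. The log2 change was above 0 in 26 of the 32, where it was above 0 in 65.9% of all genes, and the medians were 0.13 and 0.06. After scaling it was above 0 in 22, against 50.7% of all genes. Without HFD replicate 1 and HLJDD replicate 2 it was above 0 in 28, against 70.3% of all genes. In that setting 1 of all genes, the cytosolic heat shock gene Hsph1, passed the test (0.00934%), higher in HLJDD, and none of the 32 did. The intervals were wide. They ran from -0.28 to 1.12 for Hspa5, from -0.14 to 1.14 for Hyou1, from -0.46 to 1.26 for Canx, from -0.16 to 0.89 for Asns and from -0.26 to 0.74 for Xbp1. For Manf (-0.29 to 0.54), Atf4 (-0.18 to 0.40) and Ddit3 (-0.26 to 0.38) they were narrower. A doubling in HLJDD, a log2 change of 1, thus lay inside the interval for Hspa5, Hyou1 and Canx and outside it for Manf, Atf4 and Ddit3. Dnajb9 was 1 of 6 genes of the 32 with a change below 0, with a lower mean in HLJDD (35.9 ± 6.28 FPKM) than in HFD (45.6 ± 5.46; both SD, n = 4).

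**Figure D4:**
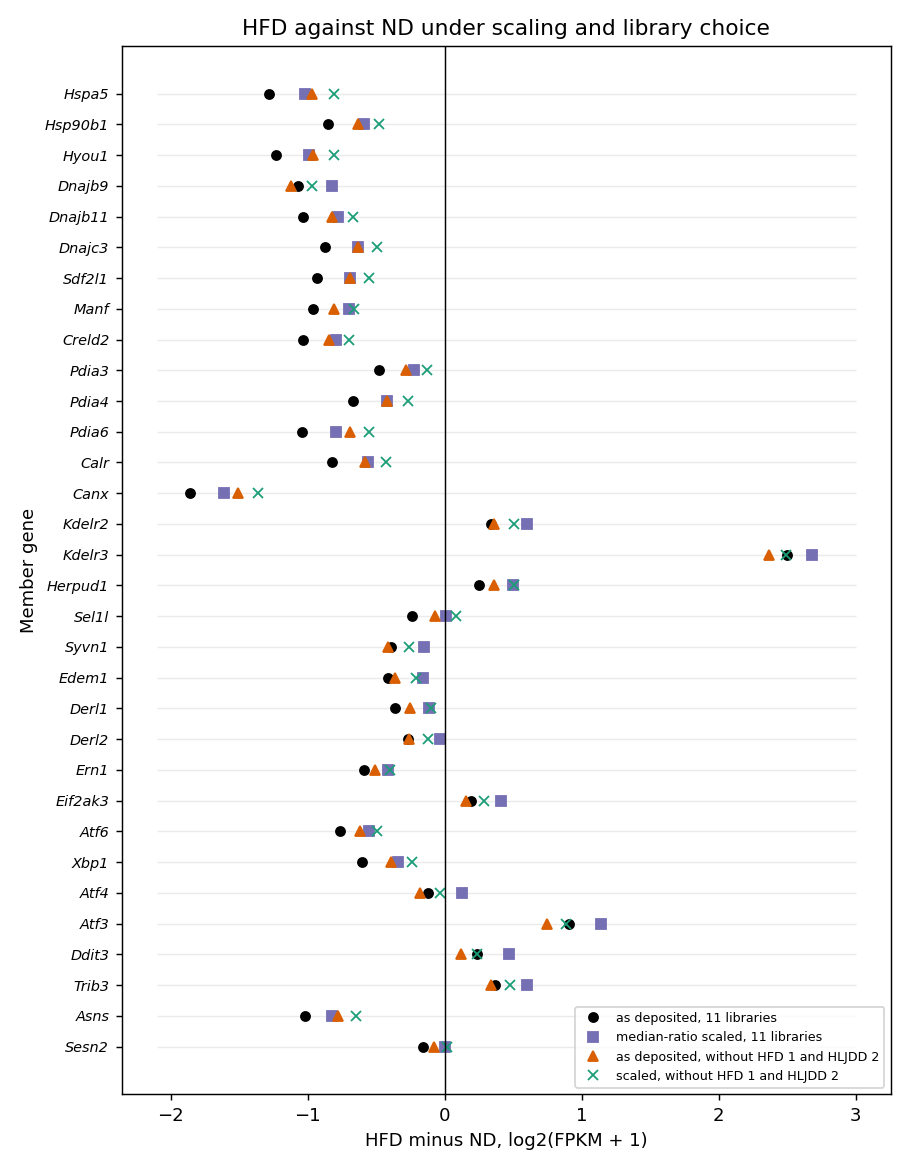
Log2 change of the 32 tested genes in HFD against ND (horizontal axis) as deposited, after median-ratio scaling, without HFD replicate 1 and HLJDD replicate 2, and with both changes. The falls of Hspa5 run from -1.28 as deposited to -0.81 with both changes, and the sign differs between settings for Sel1l, Atf4 and Sesn2.

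Other genes of these pathways were read from 6 lists of 154 genes that share none with the 34. In HFD against ND 20 of the 136 tested fell (14.7%) and 5 rose (3.68%), shares near the 11.5% and 5.06% of all genes. The count changed with single libraries, to 3 calls without ND replicate 1 or 2, 12 without ND replicate 3, 14 to 16 without HFD replicate 1, 3 or 4 or HLJDD replicate 1, and 53 without HLJDD replicate 2. Over all genes it moved as well, to 617 and 638 without ND replicate 1 or 2 and 3314 without HLJDD replicate 2, against 1786. After median-ratio scaling 21 fell (15.4%) and 19 rose (14%), where 11.4% and 11.6% of all genes did. The same shares of all genes apply to the counts of each list, which differ between scalings. Of 18 tRNA ligases, which charge tRNAs and include known Atf4 targets, 5 fell and none rose (median -0.50), and 6 fell and none rose after scaling (median -0.27). As deposited the 5 were Nars at -0.95, Tars at -1.01, Qars at -0.86, Mars1 at -0.74 and Gars at -0.64 (adjusted p = 0.0148, 0.0213, 0.0246, 0.0436 and 0.0499), and the summed level of the list was 464 to 474 FPKM in ND, 212 to 337 in HFD and 230 to 436 in HLJDD. Of 33 genes of entry into and export from the ER, 6 fell and 1 rose (median -0.51), while after scaling 5 fell and 6 rose (median -0.25). Before scaling these were, among others, the translocon genes Sec61a1 at -0.81 and Sec61g at -0.57 and the translocon-associated Ssr1 at -0.61 (adjusted p = 0.0185, 0.0117 and 0.0207), and as the rise the coat gene Sec24d at 0.92 (adjusted p = 0.0169). Of 25 further degradation genes 3 fell, Hspa13 at -1.10, Nploc4 at -0.86 and Ngly1 at -0.57, and none rose (median -0.26), while after scaling 3 fell and 2 rose (median -0.03). Of 21 folding enzymes 2 fell, Dnajc10 at -0.62 and Uggt1 at -0.68, and none rose (median -0.39), while after scaling 2 fell and 3 rose (median -0.17). Among 18 further signalling genes Eif2ak2 (-0.92) and Nck1 (-0.65) fell while Creb3l2 (1.01) and Creb3l3 (0.80) rose (median -0.19), and 3 fell and 3 rose after scaling. Among 21 further amino acid response genes Jdp2 (-0.83) and the amino acid carrier gene Slc38a2 (-0.50) fell while Ddit4 (0.76) and Cebpb (0.57) rose (median near 0), and 2 fell and 5 rose after scaling (median 0.16). In HLJDD against ND 6 of the 136 fell (4.41%) and 4 rose (2.94%), against 7.79% and 4.1% of all genes, and after scaling 13 fell (9.56%) and 16 rose (11.8%), against 9.18% and 8.61%. As deposited the falls were Hspa13, Ngly1, Eif2ak2, Jdp2, Slc38a2 and Nars (-1.14 to -0.48) and the rises were Sec24d, Sec31a, Creb3l2 and Ddit4 (0.60 to 1.22). That count of 10 was 3 without ND replicate 1, 4 without ND replicate 2, 6 without HLJDD replicate 1 or 4, 17 without HFD replicate 1, 16 without HLJDD replicate 2 and 19 without HLJDD replicate 3. In HLJDD against HFD none of the 136 passed in any list.

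Markers of the secretory cells were set beside these values. Of 16 tested goblet cell markers 3 rose in HFD against ND (Zg16 by 1.73, Fcgbp by 1.21 and Tff3 by 1.02 on the log2 scale) and Muc13 fell by 0.98, and the summed level of the 17 listed was 2049 to 3494 FPKM in ND, 4708 to 5123 in HFD and 3635 to 4480 in HLJDD. Of 13 tested Paneth cell markers 2 rose, Clps by 1.98 and Pnliprp2 by 1.65, which are also pancreatic lipid digestion genes, and none fell, with sums over 15 genes of 291 to 354, 157 to 458 and 130 to 440 FPKM. The most abundant of them, the defensin gene Defa24, Cd24a and the lysozyme gene Lyz1, were at -0.69, -0.58 and 0.03 (adjusted p = 0.431, 0.248 and 0.968). Of 10 tested plasma and B cell markers Mzb1 and Tnfrsf13b rose by 1.88 and 1.47 and Sdc1 fell by 1.36, with sums over 13 genes of 77.6 to 91.4, 144 to 311 and 138 to 335 FPKM. The most abundant of them beside Sdc1, Jchain and Cd79a, were at 1.40 and 3.53 (adjusted p = 0.0693 and 0.0594). After scaling 5 goblet cell markers rose and 1 fell, and 2 Paneth cell markers rose and none fell. Likewise 5 plasma and B cell markers rose and 1 fell after scaling. No gene of these lists was at 0 in every library. Markers of other cell types were read as well. Of 17 enterocyte markers, led in level by Fabp2, Apoa4 and Apoa1, 4 rose (Rbp2, Apoa4, Fabp1 and Alpi, of which Apoa4 and Fabp1 are also on the proximal list) and none fell, with sums of 30162 to 51648 FPKM in ND, 71050 to 80928 in HFD and 50784 to 81424 in HLJDD; after scaling 6 rose and 1 fell. None of 15 crypt proliferation markers, led by Olfm4, Pcna and Ccna2, passed the test (median -0.48), and their sums were 394 to 459, 142 to 448 and 221 to 538 FPKM. None of 10 smooth muscle markers, led by Myl9, Actg2 and Tagln, passed either (median -0.60), with sums of 649 to 904, 233 to 909 and 264 to 660 FPKM. After scaling 1 crypt marker fell and no muscle marker passed. The sums for goblet cells, plasma and B cells and enterocytes were thus higher in every HFD library than in ND. The median log2 changes of their tested markers were 0.33, 1.96 and -0.06. Single abundant genes weigh most in such sums. Zg16 had means of 910.5 FPKM in ND and 2901 in HFD, and Apoa4 had 1430 and 18326. Fabp2, the most abundant enterocyte marker, was at -0.22 (limma, adjusted p = 0.5). The crypt and muscle sums, as deposited, were lowest in HFD replicate 1 (142 and 233 FPKM) and next lowest in HLJDD replicate 2 (221 and 264). These libraries were also lowest of their groups for most of the 34 genes, and for 69% and 77.9% of all genes tested. Of 15 tested enteroendocrine markers 3 rose and 3 fell, of 5 tested pancreatic acinar markers 1 rose and of 11 tested leukocyte markers none passed. After scaling 3 enteroendocrine markers rose and 3 fell, 2 acinar markers rose and 1 leukocyte marker rose. Of 14 cytosolic heat shock genes none passed in HFD against ND, with sums of 1014 to 1099, 686 to 1150 and 1017 to 1397 FPKM. After scaling 1 heat shock gene rose. The part of cell makeup and gut position in the levels of the 34 genes was not tested.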

How the data were processed

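Per the labels' protocols, TRIzol was used for RNA extraction and a VAHTS Universal V6 kit for library construction. The submitters' processing notes list fastp, HISAT2, HTSeq, R 3.2.0 and the mm10 genome; the gene annotation, strandedness and remaining versions were not stated. The authors deposited FPKM values, 1 per symbol and library. Groups come from the sample titles. The 34 members, the gene lists and the tests were chosen with earlier results of these data known. All members are accounted for, those called in any comparison and Hspa5, Xbp1, Atf4 and Ddit3 by library. Of each pathway list up to 4 called genes with the smallest adjusted p are named, and of the secretory, enterocyte, crypt, muscle and handling marker lists the 3 most abundant genes. Those of the other marker lists are left out, except Apoa4 and Fabp1 of the proximal list. Gars, Kdelr1, Ddx17, Hsph1, Scd1 and the called marker genes named beside a count were added after their values were seen.

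From the deposited FPKM, log2(FPKM + 1) was computed, a scale that understates changes of low genes. The 10764 symbols that reached 1 FPKM in 3 or more libraries entered limma 3.58.1 (R 4.3.3) with a variance trend and all 11 libraries, two-sided, with Benjamini-Hochberg adjustment over all of them and a threshold of 0.05. The fit was tested on simulated data. Whole reads were recovered from the FPKM steps for 100% of symbols (largest distance from a whole number 0.0019 reads) and used for limma-voom and as depth. The alternatives were a pseudocount of 0.1, no filter or a minimum mean of 5 FPKM, quantile, median-ratio or equal-sum (TPM) scaling, fitting 2 groups alone, a replicate block, limma-voom, and leaving out libraries singly or HFD replicate 1 with HLJDD replicate 2. Scaling with both left out was chosen after seeing the data. Promoters are from RefSeq.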

Additional observations from a re-analysis of the deposited data

Results flagged for a closer look

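In 12 of 68 sets of 4 libraries (34 genes in HFD and in HLJDD) 1 library lay apart from the other 3 by Dixon's criterion, in which the gap to the nearest library is set against the range of the set. Chance gives about 1 in 20 for a single set. The 34 genes were read in the same libraries, so the sets are not independent and this rate does not apply to their count. No share over all genes is given beside it, so the count is not a result about these genes. All 12 were in HFD replicate 1 or HLJDD replicate 2, the libraries with 32.4% and 40.7% of reads in mitochondrial genes. The criterion was applied to FPKM as deposited, in which these libraries were the lowest of their group for 69% and 77.9% of all genes tested.

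HFD replicate 1 was low for Sdf2l1 (7.23 FPKM, the others 14.3 to 15.2), Manf (64.9, the others 96.4 to 99.0), Pdia4 (10.4, the others 20.9 to 22.3), Pdia6 (10.7, the others 28.8 to 30.2) and Canx (21.5, the others 55.8 to 62.2). It was high for Atf4 (111 FPKM, the others 94.2 to 95.2).

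HLJDD replicate 2 was low for Hyou1 (7.35 FPKM, the others 16.3 to 18.0), Sel1l (9.88, the others 19.4 to 20.1), Edem1 (13.3, the others 21.0 to 21.7), Derl1 (20.2, the others 35.0 to 36.9), Eif2ak3 (2.90, the others 5.87 to 6.16) and Xbp1 (46.9, the others 75.9 to 78.6).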

How the results depend on the processing

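The number of members called in HFD against ND (14) was 6 with no filter, 9 with the replicate block and 24 without HFD replicate 1 and HLJDD replicate 2, and ran from 3 to 23 when 1 library was left out. In HLJDD against ND (5) it was 2 with no filter, 2 with equal sums (1 higher and 1 lower), 8 with median-ratio scaling, 12 with quantile normalization, 3 with the replicate block, 20 without both libraries and 19 with scaling as well, and 2 to 10 with 1 library left out. In HLJDD against HFD it was 0 in every setting run, including those with 1 library left out.

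Other pathway genes called in HFD against ND (25) became 13 with no filter, 12 with equal sums, 40 with median-ratio scaling, 51 with quantile normalization, 38 in the fit of 2 groups, 12 with the replicate block, 65 without both libraries and 46 with scaling as well (3 to 53 with 1 left out). In HLJDD against ND (10) they became 6 with equal sums, 29 with median-ratio scaling, 36 with quantile normalization, 41 without both libraries and 29 with scaling as well (3 to 19 with 1 left out). Over all genes, HFD against ND (1786) gave 2804 with quantile normalization, 1080 with the replicate block and 3349 without both libraries (617 to 3314 with 1 left out), and median-ratio scaling turned 545 higher and 1241 lower into 1248 and 1228. HLJDD against ND (1279) gave 2297, 724, 2556 and, with scaling as well, 2382 (435 to 1695 with 1 left out), and median-ratio scaling turned 441 higher and 838 lower into 927 and 988. HLJDD against HFD gave 1 gene (Hsph1) without both libraries, 1 (Scd1) without HLJDD replicate 2 alone, and 0 to 1 with 1 left out. Atf4 in HFD against ND went from -0.12 to 0.13 (median-ratio, adjusted p = 0.623) and 0.0 (quantile, adjusted p = 0.993). Median-ratio scaling moved the median of all genes in HFD against ND from -0.21 to 0. The cause of these changes was not tested.

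Replicate numbers did not in general pair the libraries: deviations of same-numbered libraries correlated at -0.219 to 0.366. All pairs but 1 had a higher correlation with a differently numbered library of the other group. The exception was replicate 4 of HLJDD and HFD, at 0.366 against at most 0.12. The replicate block ended the calls of Hsp90b1, Sdf2l1, Ern1, Atf6 and Atf3 in HFD against ND, and of Canx and Ern1 in HLJDD against ND. In HFD against ND equal sums ended those of Sdf2l1, Atf6 and Atf3 (adjusted p = 0.0504 to 0.0599), a pseudocount of 0.1 that of Sdf2l1 (0.0532) and the fit of 2 groups that of Atf3 (0.0507), and a minimum mean of 5 FPKM left Ern1, Atf6 and Asns untested. Depth limits Chac1 and Ern2, which rest on at most 62 reads.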
